A study of Mus musculus with 6 samples.

Results

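The matrix metalloproteases, the ADAM and ADAMTS proteases and the tissue inhibitors of metalloproteases were followed at the RNA level in the epididymal fat pads of males that were 10 weeks old. Members were chosen by gene symbol: every probe set that the array's annotation pairs with exactly 1 symbol, where that symbol is Mmp, Timp, Adam or Adamts followed by a number, with Mmp12 left out. This gave 57 genes and 106 probe sets, of 18194 genes and 34958 probe sets with 1 symbol. They comprise 15 Mmp, 4 Timp, 23 Adam and 15 Adamts genes. The 3 transgenic mice (MUT in the labels) carried aP2-nSrebp1c, a transgene that makes the nuclear form of SREBP-1c from the aP2 promoter. The strain labels of these mice spell the transgene in 3 ways (aP2-nSrebp1c Tg, aP2-nSrebp1 Tg and aP2-SREBP1c Tg), and their titles use a single name. The 3 controls were litter-matched wild type males (WT in the labels), and both groups had the mixed C57BL6;SJL background. RNA of 6 mice went onto 6 Affymetrix MOE430v2.0 arrays without pooling, and the number of mice limits the precision of every value. The aP2 (Fabp4) promoter is active in fat cells and also in macrophages.

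Metalloproteases of these families hold a zinc ion in the active site and are made as inactive proenzymes. MMPs cut collagens and other matrix proteins, ADAMs are mostly membrane proteins that release the outer parts of growth factors and receptors, and ADAMTS enzymes are secreted and cut proteoglycans or process procollagens. TIMPs bind the active site and block it. In fat the balance of these enzymes and inhibitors is known for its part in matrix turnover as the tissue grows or shrinks. RNA levels say nothing about how much of each proenzyme is activated.

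Transgenic replicate 2 stood apart in RNA quality, and results that move clearly when it is left out are given with and without it. Its ratio of 3′ to 5′ signal was 122 for beta-actin and 55.9 for Gapdh, where the remaining 5 arrays had 1.11 to 1.81 and 0.772 to 1.22. Its median signal was 37.7, against 53.4 to 65.4. In a separate pattern, the same ratio for the Pcx control was 3.06 and 3.1 on the arrays of wild type replicate 3 and transgenic replicate 1, against 14.1 to 52 on the others. The tissue label was set against 14 listed adipocyte markers. The 11 that had a probe set paired with 1 symbol were all measured, and the median of their wild type signals was 7477. Of 10 listed epididymis markers and 10 germ cell markers, 6 and 10 had such a probe set. Of these, 6 and 9 stayed below a signal of 100 on every array. The germ cell list's exception was Sycp3, with signals of 153.6 to 311.9.

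The genes of these families that fell in transgenic fat were Timp4, Adamts5 and Mmp9, and none rose in the fit to all 6 arrays. Timp4, the inhibitor whose RNA is characteristic of fat and heart, was 11.1-fold lower by its brighter probe set. Adamts5, which encodes an aggrecan- and versican-cutting protease, was 3.95-fold and 2.99-fold lower by the probe sets that passed the test. Mmp9, which encodes the gelatinase of neutrophils and macrophages, was 5.44-fold lower by 1 of its probe sets, with transgenic signals of 5.3 to 33.1. Its other, brighter probe set was 2.01-fold lower and did not pass the test (limma adjusted p = 0.137). Folds were computed after adding 16 to each signal, so the size of those of dim probe sets depends on this offset.

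Of the 106 probe sets, 68 (36 genes) were bright enough to be tested. Limma called 5 of these lower (7.35%), where 1.30% of all 27023 tested probe sets were called lower. It called 0 higher, where 1.67% of all were called higher, and 7 members (10.3%; 7.76% of all tested) had an unadjusted p under 0.05 in that direction. At that p 15 members were lower, where the share of all tested was 8.66%. A call means an adjusted p under 0.05 over all tested probe sets. The median log2 fold change of the members was −0.34, against −0.09 for all tested probe sets. Quantile normalization moved these medians to −0.23 and 0.03, with 2 members called higher (2.94%; 2.43% of all tested) and 5 lower (7.35%; 1.89% of all tested). Without transgenic replicate 2, 10 member probe sets of 6 genes were called lower and 9 of 6 genes higher. The shares of all tested probe sets called in that fit were 6.23% lower and 6.96% higher, and the member median was −0.02, against 0.03 for all. Signals of the groups did not overlap for 21 member probe sets of 14 genes that were lower in transgenic fat (30.9%; 15.3% of all tested) and for 8 of 8 genes that were higher (11.8%; 11.9% of all tested). Probe sets of the same gene share a transcript and are not independent.

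**Figure D1:**
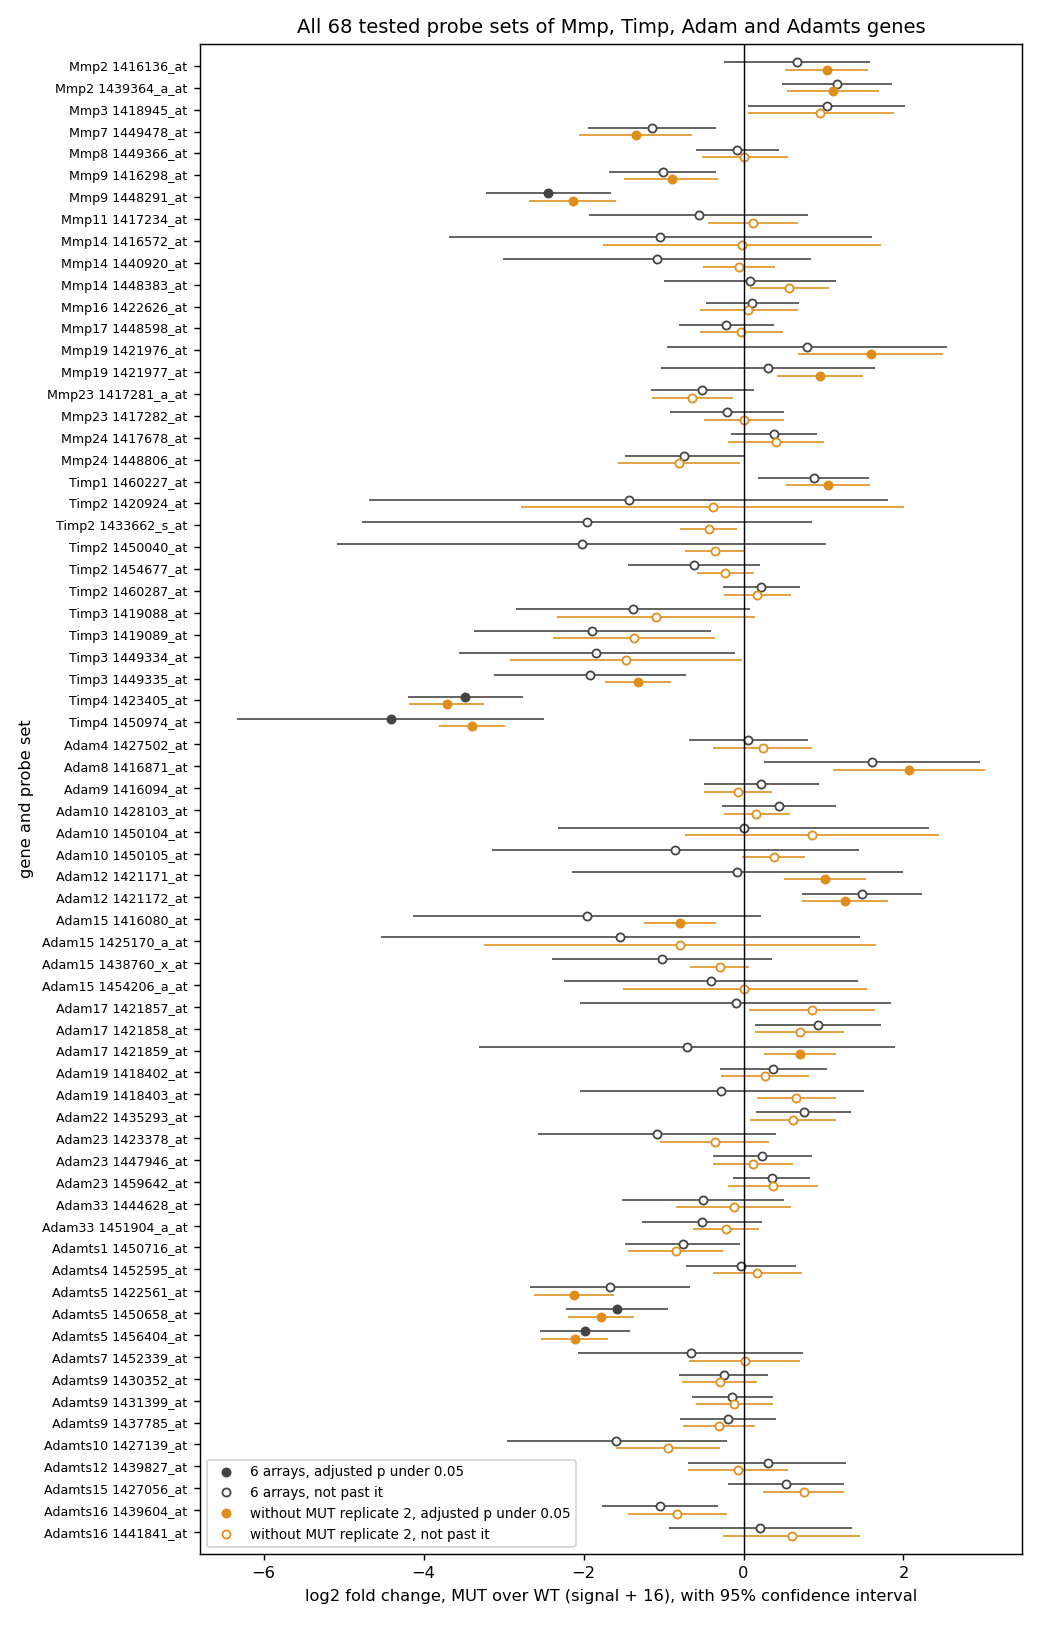
Log2 fold change of transgenic over wild type fat (log2 of signal + 16) with its 95% confidence interval for each of the 68 tested probe sets, by gene and probe set, from all 6 arrays (dark) and without transgenic replicate 2 (orange). Filled points passed an adjusted p of 0.05. Timp4, Adamts5 and Mmp9 hold the 5 filled dark points, all lower, and many dark intervals shorten when transgenic replicate 2 is left out.

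The inhibitors were the family with the lowest median change. The 12 tested Timp probe sets, 5 of Timp2 and 4 of Timp3 among them, had a median log2 fold change of −1.86. It was −0.76 without transgenic replicate 2. The inhibitors differed among themselves: Timp4 fell, Timp3 was lower with varied support, and Timp1 was the only inhibitor with higher signals in every transgenic mouse. Timp2 had negative changes, with no call in either fit, on all tested probe sets except 1460287_at. After quantile normalization the Timp median was −1.72. The stretches of 250 bases before their start sites are shown because Timp4 signals were lower and Timp1 signals higher in the same mice (GRCm38.p6, RefSeq; motif matches in capitals).
Timp1 promoter, chrX:20869916-20870165, + strand: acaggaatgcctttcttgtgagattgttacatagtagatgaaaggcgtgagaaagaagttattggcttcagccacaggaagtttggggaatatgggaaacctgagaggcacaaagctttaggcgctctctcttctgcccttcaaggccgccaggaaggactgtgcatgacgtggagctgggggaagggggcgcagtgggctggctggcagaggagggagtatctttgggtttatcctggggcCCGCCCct
Timp2 promoter, chr11:118355412-118355661, - strand: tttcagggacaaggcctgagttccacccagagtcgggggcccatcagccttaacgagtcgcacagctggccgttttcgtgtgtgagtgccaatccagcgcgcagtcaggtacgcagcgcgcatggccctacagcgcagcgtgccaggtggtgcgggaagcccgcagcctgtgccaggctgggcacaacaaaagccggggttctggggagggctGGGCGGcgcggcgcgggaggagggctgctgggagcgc
Timp3 promoter, chr10:86300162-86300411, + strand: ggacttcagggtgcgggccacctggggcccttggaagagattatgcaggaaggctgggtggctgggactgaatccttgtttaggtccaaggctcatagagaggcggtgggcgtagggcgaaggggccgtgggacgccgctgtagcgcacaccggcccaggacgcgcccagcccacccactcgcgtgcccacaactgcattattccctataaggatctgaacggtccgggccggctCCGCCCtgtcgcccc
Timp4 promoter, chr6:115252206-115252455, - strand: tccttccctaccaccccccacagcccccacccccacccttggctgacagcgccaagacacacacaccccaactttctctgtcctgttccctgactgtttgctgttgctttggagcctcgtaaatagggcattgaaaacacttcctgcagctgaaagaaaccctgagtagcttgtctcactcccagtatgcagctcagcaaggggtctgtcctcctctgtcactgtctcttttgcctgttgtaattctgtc
The capitals mark the GC box (GGGCGG on either strand), which lies with its first base 8, 37 and 15 bases before the start of Timp1, Timp2 and Timp3. Timp4 had no match to it in this window, nor to an AP-1 site (TGAGTCA) or an E-box (CACGTG). It also had no TATA box (TATAAA) and no sterol element core (CACCCCAC). Each motif was searched on both strands, and the letters of these motifs do not contain one another. The GC box was found in 32.7% of all 32851 promoter windows of this length. GC content was 53.6% for Timp4, 54.4% for Timp1, 68.0% for Timp2 and 65.6% for Timp3, against a median of 52.4% over all windows. These matches describe the letters only.

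Timp4 had signals of 3717.1, 4002.5 and 3331.4 in the wild type mice and 211.0, 441.4 and 334.3 in transgenic replicates 1, 2 and 3 by probe set 1423405_at. Every transgenic mouse lay far below every wild type mouse. The log2 fold change was −3.48 ± 0.30 (SE, limma adjusted p = 0.00327), and −3.71 without transgenic replicate 2 (adjusted p = 9.13e-06). This call held whichever array was left out (adjusted p up to 0.0390). The second probe set, 1450974_at, read 2771.0, 3184.1 and 2574.9 in wild type and 225.2, 16.7 and 288.8 in transgenic replicates 1, 2 and 3. It again left a wide gap between the groups, but transgenic replicate 2 was close to background. Its log2 fold change was −4.41 ± 0.81 (SE, adjusted p = 0.0396). Leaving out transgenic replicate 2 gave −3.39 (adjusted p = 7.73e-06), and leaving out any other array ended the call, with adjusted p from 0.0672 to 0.195. Within the class of low Pcx ratio (transgenic replicate 1 over wild type replicate 3) 1423405_at differed by −3.88 and 1450974_at by −3.43, and within the other class by −3.27 and −4.90. The last value was −3.29 without transgenic replicate 2. With the Pcx class as a block, 1423405_at kept its call (adjusted p = 0.00738) and 1450974_at did not (adjusted p = 0.0716).

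Timp4, Timp3 and Timp1 each lie inside a synapsin gene, Syn2, Syn3 and Syn1, in the GRCm38.p6 annotation. The 3 tested probe sets of Syn2, the host of Timp4, had log2 fold changes of −0.67, −0.61 and −0.41 (limma adjusted p = 0.311, 0.255 and 0.566). Syn3, the host of Timp3, had 0.39 (adjusted p = 0.727) and Syn1, the host of Timp1, 0.33 (adjusted p = 0.622), each by its only tested probe set. None of these passed the test, and whether the hosts differ from their Timp genes was not tested.

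Timp3 encodes the inhibitor that stays bound to the matrix and also blocks several ADAM and ADAMTS enzymes. Its probe set 1449335_at read 2770.8, 2906.5 and 3090.1 in wild type and 974.7, 320.9 and 1381.9 in transgenic replicates 1, 2 and 3. The groups did not overlap, and transgenic replicate 2 was the lowest. The log2 fold change was −1.92 ± 0.51 (SE, adjusted p = 0.116), which did not pass the test, and −1.32 (adjusted p = 0.00140) without that array. The other 3 probe sets of Timp3 had log2 fold changes from −1.89 to −1.38, and none of them passed in either fit. With the Pcx class as a block, 1449334_at passed (adjusted p = 0.0227), and 1419089_at and 1419088_at did not (adjusted p = 0.0513 and 0.0815). In each of the 3, wild type replicate 3 was the brightest of all arrays, for example 2505.5 on 1419089_at against 1041.2 and 960.2 in wild type replicates 1 and 2.

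Timp2 encodes the inhibitor that also takes part in the activation of pro-MMP2 at the cell surface. Probe set 1460287_at read 2223.9, 2511.9 and 3288.4 in wild type and 2861.3, 3303.3 and 3104.7 in transgenic mice, with overlapping groups. The log2 difference was 0.22 ± 0.20 (SE, adjusted p = 0.612). Probe set 1433662_s_at read 2744.2, 3062.8 and 3475.9 in wild type and 2373.9, 79.6 and 2190.4 in transgenic replicates 1, 2 and 3. Its log2 fold change of −1.96 ± 1.18 (SE, adjusted p = 0.465) became −0.43 (adjusted p = 0.115) without transgenic replicate 2, the array that was far below the others. On 1420924_at the signals were 101.0, 297.2 and 1470.4 in wild type and 883.8, 16.6 and 78.2 in transgenic mice. There the brightest arrays were wild type replicate 3 and transgenic replicate 1, the pair with the low Pcx ratio. Brightest in wild type was 1454677_at, with 4378.1, 4113.9 and 3873.3. Transgenic replicates 1, 2 and 3 read 3084.8, 1529.3 and 4013.1, with overlap. Its log2 fold change was −0.62 ± 0.35 (SE, adjusted p = 0.433), and −0.23 (adjusted p = 0.419) on the 5 arrays. The same fits gave −2.02 and −0.36 on 1450040_at (adjusted p = 0.487 and 0.208), without overlap. No Timp2 probe set passed the test in either fit. After quantile normalization of the 5 arrays, 1454677_at was called lower (−0.34, adjusted p = 0.0169).

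Timp1, the inducible inhibitor, read 213.9, 192.5 and 158.0 in wild type and 330.2, 275.4 and 495.4 in transgenic replicates 1, 2 and 3. All transgenic mice were above all wild type mice. On the log2 scale this difference was 0.88 ± 0.29 (SE, adjusted p = 0.202; 95% interval 0.18 to 1.57). Without transgenic replicate 2 it was 1.05 (adjusted p = 0.0166), a 2.07-fold difference.

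**Figure D2:**
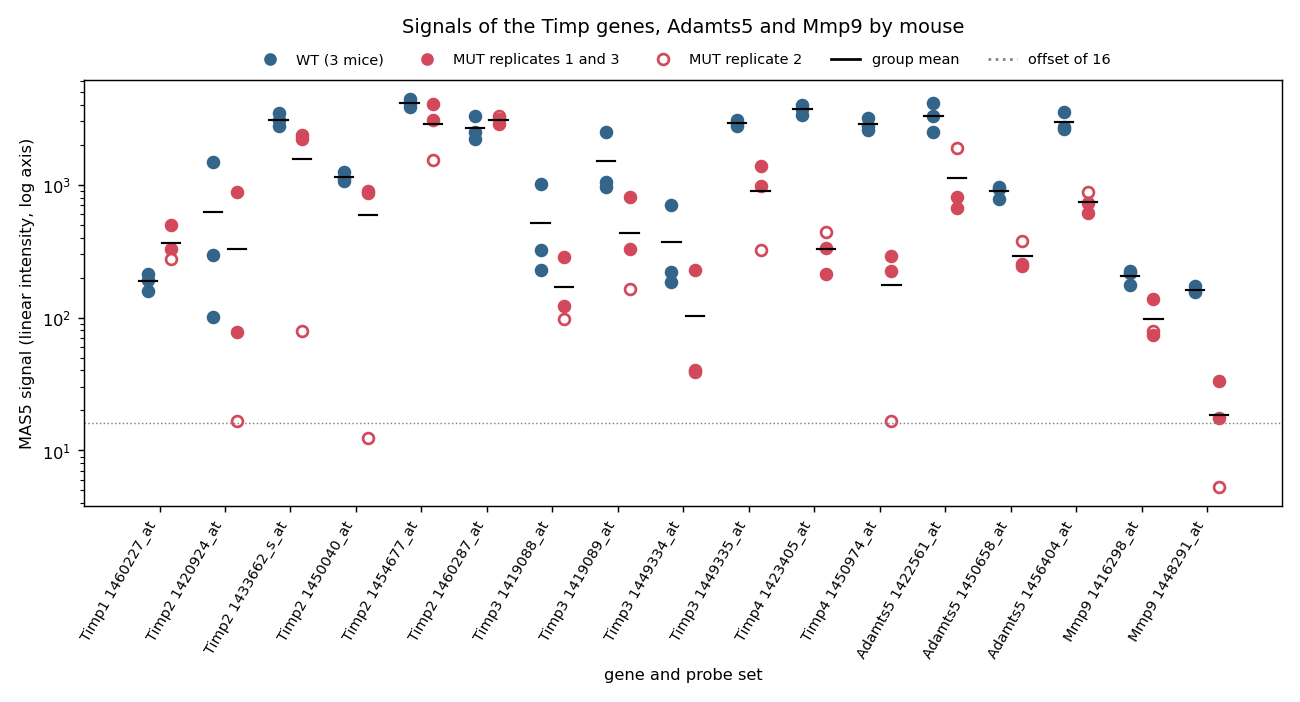
MAS5 signal (log axis) of each mouse for the 17 tested probe sets of Timp1, Timp2, Timp3, Timp4, Adamts5 and Mmp9. Points are mice, open points are transgenic replicate 2, bars are group means and the dotted line is the offset of 16. For Timp4, Adamts5 and Mmp9 every transgenic mouse lies below every wild type mouse, while transgenic replicate 2 drops to 12.4, 16.6 and 79.6 on 3 of the 5 Timp2 probe sets.

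The ADAMTS proteases were led by Adamts5. Of 14 tested probe sets in this family, 2 fell and 0 rose in the fit to 6 arrays. The shares of all tested probe sets called were 1.30% lower and 1.67% higher. At a limma unadjusted p under 0.05, 0 were higher (7.76% of all tested). All 3 tested Adamts5 probe sets, Adamts1, Adamts10 and Adamts16 1439604_at were lower at that p (8.66% of all tested). Probe set 1456404_at of Adamts5 read 3546.6, 2635.7 and 2715.7 in wild type and 613.4, 877.8 and 730.0 in transgenic mice. The transgenic values were close together and all far below the wild type. The log2 fold change was −1.98 ± 0.24 (SE, adjusted p = 0.00877), with adjusted p of 0.0761, 0.0740 and 0.0714 when wild type replicate 1, 2 or 3 was left out. Probe set 1450658_at read 956.0, 778.0 and 933.6 in wild type and 251.5, 377.9 and 243.2 in transgenic mice (−1.58 ± 0.27 SE, adjusted p = 0.0311). Its call was lost when any array other than transgenic replicate 2 was left out (adjusted p from 0.0687 to 0.185). The third, 1422561_at, read 4125.8, 3300.2 and 2493.1 in wild type and 662.1, 1891.1 and 813.3 in transgenic replicates 1, 2 and 3. It missed the threshold on 6 arrays (−1.67 ± 0.42 SE, adjusted p = 0.104). Without transgenic replicate 2 all 3 were called, with log2 fold changes of −2.12, −1.78 and −2.11 (adjusted p from 0.000118 to 0.000293). Within the classes of low and high Pcx ratio, 1456404_at differed by −2.12 and −1.91 and 1450658_at by −1.83 and −1.46. With that class as a block, the adjusted p was 0.0173 for 1456404_at and 0.0583 for 1450658_at, which ended the second call.

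Other ADAMTS genes had no call in either fit. Adamts1, an aggrecan- and versican-cutting enzyme, read 494.5, 625.2 and 456.5 in wild type and 209.0, 340.6 and 376.9 in transgenic mice, without overlap. On the log2 scale it differed by −0.76 ± 0.30 (SE, adjusted p = 0.276). Leaving out transgenic replicate 2 gave −0.85 (adjusted p = 0.0652). Adamts10, which acts on fibrillin microfibrils, read 460.7, 383.8 and 402.7 in wild type and 302.9, 43.0 and 141.0 in transgenic replicates 1, 2 and 3 (−1.59 ± 0.58 SE, adjusted p = 0.244). With transgenic replicate 2 left out the value was −0.94 (adjusted p = 0.0616). Adamts16 had 1 probe set without overlap (112.7, 64.9 and 93.1 in wild type and 51.1, 21.3 and 35.4 in transgenic mice; −1.05 ± 0.31 SE, adjusted p = 0.150) and another with 0.21 ± 0.48 (SE, adjusted p = 0.844). On 5 arrays these were −0.83 and 0.60 (adjusted p = 0.0850 and 0.370). The 3 probe sets of Adamts9, a versican-cutting protease, had log2 fold changes from −0.25 to −0.14, with 95% intervals that together spanned −0.81 to 0.41. Adamts4, an inducible aggrecanase, had −0.03 ± 0.29 (SE, 95% interval −0.72 to 0.65), and 0.17 without transgenic replicate 2. Adamts12 had 0.30 ± 0.42 (SE, adjusted p = 0.742) and Adamts15 0.53 ± 0.31 (SE, adjusted p = 0.446), which became −0.07 and 0.75 (adjusted p = 0.916 and 0.0608) on the 5 arrays. Adamts7 had −0.66 ± 0.59 (SE, adjusted p = 0.608), with 2.1 on transgenic replicate 2 against 48.7 and 69.1 in the other transgenic mice. Its value was 0.02 (adjusted p = 0.980) without that array.

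Among the gelatinases, Mmp9 fell and Mmp2 had higher signals. Mmp9 read 158.0, 154.5 and 173.8 in wild type and 17.5, 5.3 and 33.1 in transgenic replicates 1, 2 and 3 by probe set 1448291_at. The wild type mice were tight, and the transgenic signals lay around the offset of 16, where the size of a fold depends on that offset. The log2 fold change was −2.44 ± 0.33 (SE, adjusted p = 0.0138), with −3.36 for an offset of 1 and −1.46 for an offset of 64. The adjusted p was 0.0849, 0.0895 and 0.0889 when wild type replicate 1, 2 or 3 was left out, and 0.000469 without transgenic replicate 2. Within the classes of low and high Pcx ratio the differences were −2.50 and −2.41. The other probe set of Mmp9, 1416298_at, read 176.3, 225.9 and 214.8 in wild type and 137.4, 79.4 and 74.5 in transgenic mice. There too the groups did not overlap. The log2 difference was −1.01 ± 0.28 (SE, adjusted p = 0.137), or −0.90 (adjusted p = 0.0494) with transgenic replicate 2 left out.

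Mmp2, which encodes the gelatinase of stromal cells, read 637.1, 539.0 and 555.1 in wild type and 923.7, 1405.7 and 1749.7 in transgenic mice by 1439364_a_at. All transgenic mice were above all wild type mice. The log2 fold change was 1.17 ± 0.29 (SE, adjusted p = 0.0993), 1.18 after quantile normalization (adjusted p = 0.0314) and 1.12 without transgenic replicate 2 (adjusted p = 0.0200). By the other probe set, 1416136_at, transgenic replicate 2 (706.7) lay among the wild type values of 702.0 to 760.9, and replicates 1 and 3 were above them (1164.9 and 2016.7). That probe set had 0.67 ± 0.38 (SE, adjusted p = 0.443). Leaving out transgenic replicate 2 gave 1.04 (adjusted p = 0.0174).

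Mmp7, which encodes matrilysin, a small epithelial enzyme, read 63.0, 131.9 and 108.8 in wild type and 22.1, 52.4 and 35.7 in transgenic mice. The groups did not overlap (−1.15 ± 0.34 SE, adjusted p = 0.152), and without transgenic replicate 2 the log2 fold change was −1.35 (adjusted p = 0.0207). Mmp19 read 262.8, 312.6 and 437.2 in wild type and 727.1, 159.3 and 588.9 in transgenic replicates 1, 2 and 3 by 1421977_at. Transgenic replicate 2 was the lowest array and the other 2 transgenic arrays were the highest. The groups differed by 0.31 ± 0.56 (SE, adjusted p = 0.807) on the log2 scale, which became 0.95 (adjusted p = 0.0286) without that array and −0.09 without transgenic replicate 1. The second probe set of Mmp19 went from 0.79 (adjusted p = 0.619) to 1.59 (adjusted p = 0.0305) in the same way. Mmp3, which encodes stromelysin-1, read 98.6, 66.9 and 31.4 in wild type and 89.0, 157.7 and 196.7 in transgenic mice, with overlap (1.04 ± 0.41 SE, adjusted p = 0.282; 0.96 on 5 arrays, adjusted p = 0.168).

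Of the membrane-type enzymes, Mmp14, the activator of pro-MMP2, had 3 tested probe sets and none was called in either fit. Probe set 1448383_at read 536.6, 474.0 and 706.7 in wild type and 963.0, 295.0 and 746.2 in transgenic replicates 1, 2 and 3 (0.08 ± 0.45 SE, adjusted p = 0.940). Without transgenic replicate 2, the lowest array, it had 0.57 (adjusted p = 0.130). The other probe sets, 1416572_at and 1440920_at, had −1.04 ± 1.11 and −1.08 ± 0.81 (SE, adjusted p = 0.667 and 0.544), with 2.8 and 8.2 on transgenic replicate 2. Without it they were at −0.02 and −0.06. Mmp16 had 0.11 ± 0.24 (SE, 95% interval −0.47 to 0.69) and Mmp17 −0.22 ± 0.25 (SE, 95% interval −0.81 to 0.38). The 2 tested probe sets of Mmp24 opposed each other, with 0.38 ± 0.23 and −0.74 ± 0.31 (SE, adjusted p = 0.459 and 0.303), and in both the groups did not overlap. Mmp23 had −0.52 ± 0.27 and −0.21 ± 0.30 (SE, adjusted p = 0.409 and 0.754), and −0.64 and 0.01 on the 5 arrays. Mmp11, stromelysin-3, had −0.56 ± 0.58 (SE, adjusted p = 0.651), and 0.12 without transgenic replicate 2. Mmp8, which encodes the neutrophil collagenase, had −0.08 ± 0.22 (SE, 95% interval −0.60 to 0.44). The collagenase gene Mmp13 was too dim to be tested, with signals of 7.5, 5.5 and 3.6 in wild type and 14.5, 20.8 and 22.6 in transgenic mice.

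The ADAM genes, with the non-proteases Adam22 and Adam23 included, had 23 tested probe sets of 11 genes, of which 0 were called on 6 arrays. At an unadjusted p under 0.05, limma had 4 higher and 0 lower, where all tested probe sets had the 7.76% and 8.66% given above. Their median log2 fold change was −0.08, and 0.05 after quantile normalization. Without transgenic replicate 2 it was 0.27, with 4 probe sets called higher and 1 lower. The shares of all tested probe sets called in that fit were 6.96% higher and 6.23% lower. Adam8, a sheddase of leukocytes, read 311.6, 274.4 and 104.7 in wild type and 681.4, 346.0 and 1265.9 in transgenic replicates 1, 2 and 3. All transgenic mice were above all wild type mice, transgenic replicate 2 by little. The difference on the log2 scale was 1.61 ± 0.57 (SE, adjusted p = 0.230), and 2.07 (adjusted p = 0.0112), a 4.19-fold difference, without transgenic replicate 2. Adam12, which is expressed in regenerating muscle and in cells that form fat, read 319.6, 203.9 and 208.7 in wild type and 529.8, 939.0 and 676.2 in transgenic mice by 1421172_at. These groups did not overlap (1.48 ± 0.32 SE, adjusted p = 0.0640), and the adjusted p was 0.0378 after quantile normalization and 0.00773 without transgenic replicate 2. By 1421171_at, Adam12 read 135.1, 95.0 and 131.6 in wild type and 225.1, 11.9 and 295.4 in transgenic replicates 1, 2 and 3. There transgenic replicate 2 was the lowest array, and the log2 fold change of −0.08 ± 0.87 (SE, adjusted p = 0.972) turned to 1.02 (adjusted p = 0.0179) without it. The sign was also positive after quantile normalization (0.05) and median centring (0.04).

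Adam17, the TNF-α converting enzyme, showed the same disagreement on 3 probe sets. Probe set 1421858_at read 546.3, 466.6 and 433.0 in wild type and 593.1, 1292.3 and 1045.2 in transgenic mice, all higher (0.93 ± 0.33 SE, adjusted p = 0.232; without transgenic replicate 2, 0.70 with adjusted p = 0.107). Probe set 1421859_at read 330.7, 301.6 and 329.7 in wild type and 454.2, 13.4 and 618.7 in transgenic replicates 1, 2 and 3. All 6 arrays gave −0.71 ± 1.10 (SE, adjusted p = 0.771), and the 5 without transgenic replicate 2 gave 0.70 (adjusted p = 0.0483). The remaining probe set, 1421857_at, had −0.10 ± 0.82 (SE, adjusted p = 0.962) and 0.86 (adjusted p = 0.154) in these fits. Adam10, the sheddase of Notch and cadherins, read 1617.5, 1267.9 and 1277.4 in wild type and 1387.2, 2779.6 and 1717.0 in transgenic mice on 1428103_at, with overlap (0.44 ± 0.30 SE, adjusted p = 0.511). Its probe set 1450105_at had 25.1 on transgenic replicate 2, against 371.9 to 530.8 on all other arrays, and its value went from −0.86 to 0.38 (adjusted p = 0.681 and 0.213) without that array. Adam9 had 0.22 ± 0.30 (SE, 95% interval −0.49 to 0.94), and −0.07 on the 5 arrays.

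Adam15 had lower signals by 1416080_at, with 638.2, 602.2 and 733.2 in wild type and 318.7, 18.6 and 428.6 in transgenic replicates 1, 2 and 3. The groups did not overlap (−1.96 ± 0.92 SE, adjusted p = 0.353), and the value was −0.80 (adjusted p = 0.0286) without transgenic replicate 2. Probe set 1438760_x_at of Adam15, whose suffix marks probes shared with other sequences, had −1.02 ± 0.58 (SE, adjusted p = 0.442), and −0.30 (adjusted p = 0.285) on the 5 arrays. Adam19 had 0.37 ± 0.28 and −0.28 ± 0.75 (SE, adjusted p = 0.553 and 0.872). The second probe set, 1418403_at, read 4.6 on transgenic replicate 2 against 135.1 and 124.4 in the other transgenic mice, and its value turned to 0.66 (adjusted p = 0.0841) without that array. Adam33 had −0.51 ± 0.43 and −0.52 ± 0.32 (SE, adjusted p = 0.585 and 0.467), and −0.12 and −0.22 on the 5 arrays. Adam22 and Adam23 encode adhesion proteins without protease activity. Adam22 read 70.3, 57.8 and 81.1 in wild type and 98.6, 156.5 and 132.8 in transgenic mice, without overlap (0.75 ± 0.25 SE, adjusted p = 0.2; 0.62 on 5 arrays, adjusted p = 0.133). The 3 probe sets of Adam23 had 0.23, 0.35 and −1.08, none called. The last, 1423378_at, read 3.4 on transgenic replicate 2 and had −0.36 without it.

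**Figure D3:**
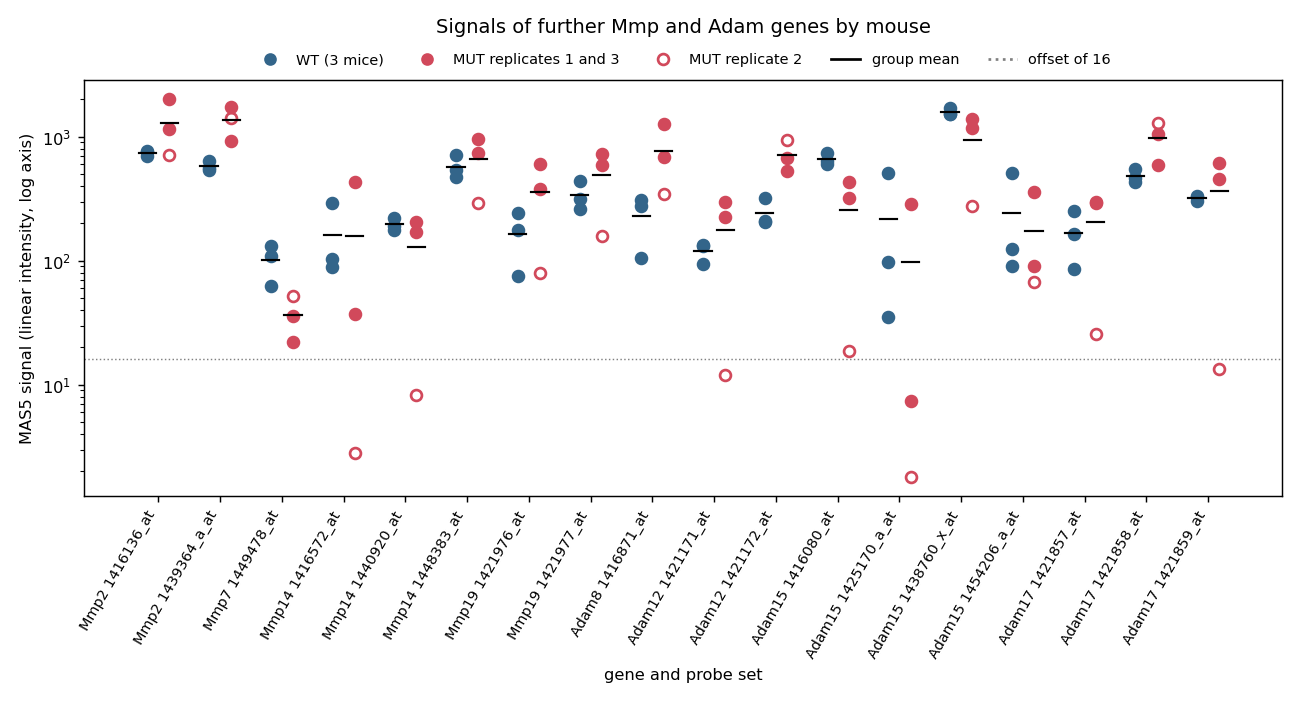
MAS5 signal (log axis) of each mouse for the tested probe sets of Mmp2, Mmp7, Mmp14, Mmp19, Adam8, Adam12, Adam15 and Adam17. Points are mice, open points are transgenic replicate 2, bars are group means and the dotted line is the offset of 16. Transgenic replicate 2 is the highest array on Adam12 1421172_at (939.0) and the lowest on Adam12 1421171_at (11.9).

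How far transgenic replicate 2 departed from the other transgenic arrays differed between probe sets of the same gene. Of 19 member genes with more than 1 tested probe set, 11 had a probe set on which transgenic replicate 2 was above the mean of transgenic replicates 1 and 3 and another on which it was below. For Timp2 the ratio ran from 0.0140 to 1.11, for Adam17 from 0.0250 to 1.58, for Adam10 from 0.0482 to 1.79 and for Timp4 from 0.0650 to 1.62. For Adamts5 it was above 1 on all 3 (1.31 to 2.56), and for Timp3 below on all 4 (0.272 to 0.473). Transgenic replicate 2 was the lowest of the 6 arrays on 35 of 68 member probe sets (51.5%; 44.6% of all tested) and the highest on 9 (13.2%; 24.5% of all). On 6 arrays 9 of the 19 genes had fold changes on both sides of 0, and 7 without transgenic replicate 2. The counts by gene were not taken over all genes, so they show nothing particular to these families. Where along its transcript each probe set lies was not analysed here.

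**Figure D4:**
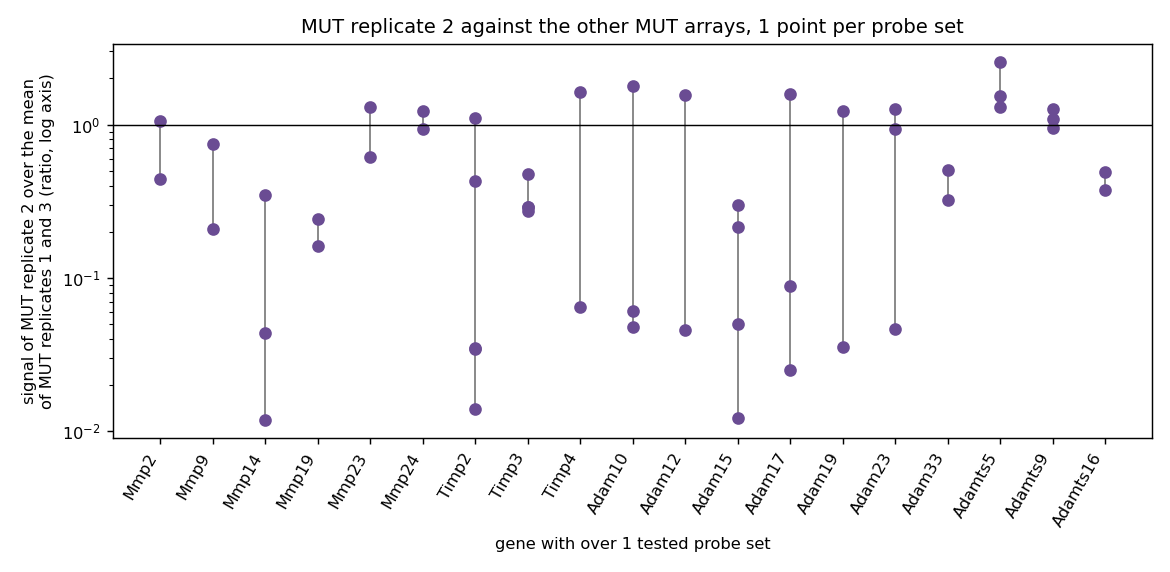
Ratio of the signal of transgenic replicate 2 to the mean of transgenic replicates 1 and 3 (log axis) for the 19 genes with more than 1 tested probe set. Each point is a probe set and the line joins those of a gene. Timp2 spans 0.0140 to 1.11, while the 3 points of Adamts5 all lie above 1.

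On 9 member probe sets (13.2%; 8.51% of all tested) wild type replicate 3 and transgenic replicate 1, the arrays with the low Pcx ratio, were the 2 brightest. They belong to Mmp11, Mmp14, Timp2, Timp3, Adam10, Adam15 (2 probe sets), Adam33 and Adamts9. On Adam15 1425170_a_at these arrays read 512.6 and 285.9, against 1.8 to 98.1 on the others. None of the 9 was called in either fit, and the part of this split in their values was not tested.

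The other 38 member probe sets were too dim to be tested, and 21 genes had no tested probe set. Their signals ran from 0.6 to 61.6 with a median of 11.8, and 61.8% of the 228 values were below the offset of 16. Of the Adam genes, this group held Adam2, Adam3, Adam5, Adam7, Adam11, Adam18, Adam21, Adam24, Adam25, Adam28, Adam32 and Adam34, many of which are known from testis, sperm or epididymis. Adam4 was the exception in that class, with signals of 75.8 to 148.9 and a difference of 0.06 ± 0.31 on the log2 scale (SE, adjusted p = 0.931). The other genes in this group were Mmp10, Mmp13, Mmp20, Adamts3, Adamts6, Adamts8, Adamts18, Adamts19 and Adamts20.

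Promoter windows of 250 bases were at hand for 30 of the 57 genes, 34 windows in all. Adamts5, Mmp9, Mmp2 and Adam12 had no window, so their promoters were not searched. An AP-1 site was in 5 of the 34 (14.7%), those of Mmp3, Mmp7, Mmp10, Mmp13 and Adam19, against 4.46% of all windows. A TATA box was in 6 (17.6%; 12.4% of all), and Mmp3, Mmp7, Mmp10 and Mmp13 held both. Of these, Mmp3 and Mmp7 were measured, with the opposite signs given above, and Mmp10 and Mmp13 were dim. The sterol element core was in 1 window (2.94%; 2.58% of all), that of Adam23. The E-box was in 3 windows (8.82%; 6.02% of all) and the GC box in 15 (44.1%).

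Genes that act on or with these families were counted by their brightest tested probe set, where 2.23% of all 13112 genes were called higher and 1.54% lower. At an unadjusted p under 0.05 these shares were 9.44% and 8.95%, and without transgenic replicate 2 the adjusted calls were 8.04% and 7.33%. Of 21 measured activators and inhibitors outside the families, 1 fell and 0 rose, with 0 higher at an unadjusted p under 0.05. It was Pcsk6, a proprotein convertase that can activate ADAMTS proenzymes, with 1442.9, 1319.9 and 1201.2 in wild type and 138.9, 176.5 and 199.5 in transgenic mice (−2.84 ± 0.24 SE, adjusted p = 0.00327, at most 0.0406 in the fits to 5 arrays). On the 5 arrays other than transgenic replicate 2, 4 fell and 1 rose. Furin, the convertase that activates many MMPs and ADAMs, had 0.04 ± 0.27 (SE, adjusted p = 0.954). Reck, a membrane inhibitor of MMPs, had −0.51 ± 0.35 (SE, adjusted p = 0.516) on 6 arrays. With transgenic replicate 2 left out it was called lower (−0.86, adjusted p = 0.0236). Of 11 relatives, such as Adamtsl and Mme genes, 0 were called by limma, with 0 higher and 3 lower at an unadjusted p under 0.05. Of these 11, 3 fell and 0 rose without transgenic replicate 2. Of 30 substrate genes 0 were called, with 1 higher and 9 lower at an unadjusted p under 0.05; without transgenic replicate 2, 6 fell and 3 rose. Vcan, the versican cut by Adamts5, had −0.25 ± 0.32 (SE, adjusted p = 0.721).

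Markers of cell types moved with the groups. In bulk fat, fewer cells of a type and less RNA per cell cannot be told apart. Of 15 macrophage markers 3 rose, 0 fell and 12 were not called. The 3 were Fcgr1, an antibody receptor, Ctss, a lysosomal protease, and Aif1, with log2 differences of 1.64, 1.60 and 1.43 (adjusted p = 0.0396, 0.0240 and 0.0363). The list's summed signal was 15649 to 19260 in wild type and 32280 to 43482 in transgenic mice. Leaving out transgenic replicate 2 gave 10 that rose. Of 8 tested neutrophil markers 1 rose (3 without transgenic replicate 2). It was Camp, an antimicrobial peptide of neutrophil granules, with 7.8, 1.9 and 6.0 in wild type and 130.8, 148.3 and 165.6 in transgenic mice (adjusted p = 0.00225), and the list's summed signal was 520 to 596 in wild type and 1002 to 1232 in transgenic mice, while Mmp9 was lower in the same mice. Of 11 adipocyte markers 2 fell (8 without transgenic replicate 2), the adipokine genes Lep and Adipoq, with log2 differences of −3.74 and −0.93 (adjusted p = 0.00301 and 0.0448). The list had sums of 72558 to 80216 in wild type and 23182 to 47463 in transgenic mice. Of 10 mesothelial markers 2 fell (9 without transgenic replicate 2), Msln and Krt19, with log2 differences of −2.72 and −1.86 (adjusted p = 0.0392 and 0.0348). The sums were 6548 to 7296 and 1872 to 2679. Of 10 endothelial markers 0 were called by limma, with 0 higher and 3 lower at an unadjusted p under 0.05, and 6 fell without transgenic replicate 2. Their sums were 11232 to 12620 in wild type and 2495 to 8110 in transgenic mice. Progenitor and fibroblast markers had sums of 24368 to 28980 and 23896 to 30562, which overlap. Of the 12, 1 fell, Dpp4, with a log2 difference of −1.45 (adjusted p = 0.0427). On the 5 arrays other than transgenic replicate 2, 3 fell and 1 rose. Of 8 smooth muscle and pericyte markers 1 fell, Rgs5, with a log2 difference of −1.27 (adjusted p = 0.0393), and 0 rose (2 and 1 without transgenic replicate 2). The list had sums of 10036 to 11843 in wild type and 6485 to 7879 in transgenic mice. Transgenic replicate 2 gave the lowest adipocyte, mesothelial, endothelial and smooth muscle sums (23182, 1872, 2495 and 6485). No lymphocyte marker (7 tested) or skeletal muscle marker (3 tested) was called by limma, with 1 and 0 higher and 0 and 1 lower at an unadjusted p under 0.05. With transgenic replicate 2 left out, 1 lymphocyte marker rose and 1 skeletal muscle marker fell. Of the called markers, Lep and Camp kept the call whichever array was left out (adjusted p up to 0.0357 and 0.0268), and the others lost it in at least 1 such fit. No marker in these lists was at 0 on all arrays. The part of these cell types in the changes of Timp4, Adamts5, Mmp9, Mmp2, Adam8 or any other member was not tested.

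**Figure D5:**
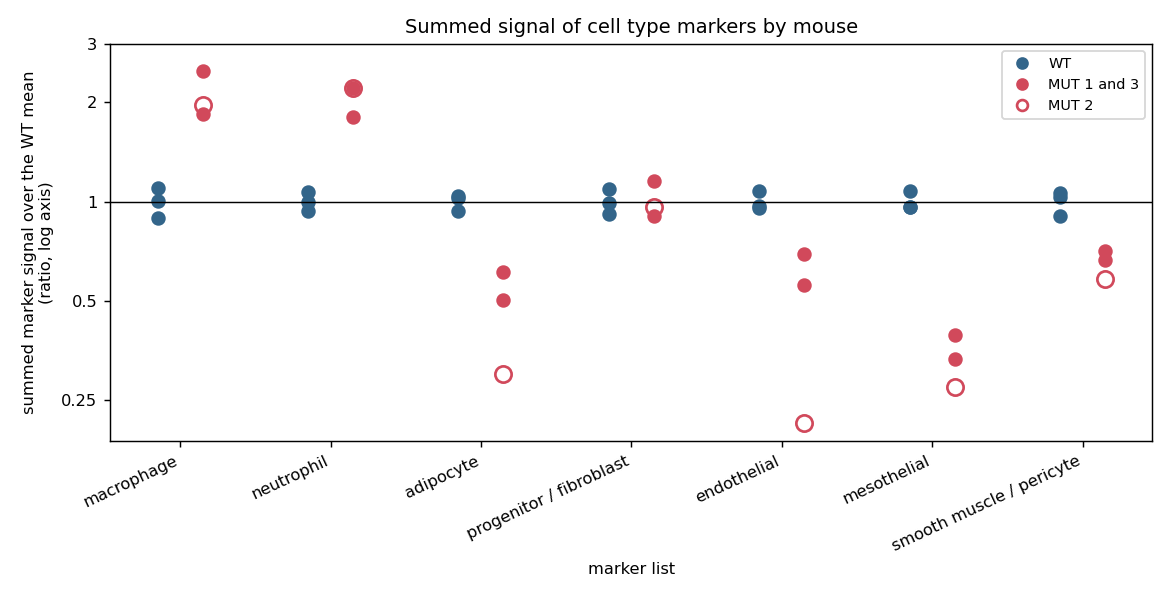
Summed signal of each marker list in each mouse as a ratio to the wild type mean (log axis). Macrophage and neutrophil sums are higher in all 3 transgenic mice, adipocyte, endothelial, mesothelial and smooth muscle sums are lower in all 3, and the progenitor and fibroblast sums of the groups overlap.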

How the data were processed

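Total RNA of 6 mice, 3 transgenic and 3 wild type, was measured on 6 arrays. The deposited values are linear MAS5 signal intensities, per the submitters' processing notes, with version, scaling target and detection calls not given in the sources used here. Without detection calls no bound was set on dim signals. There are 0 columns of other samples. Probe sets were paired with genes through GEO's platform annotation (34958 of 45101 with 1 symbol, 932 with several, 9211 with none). All 106 member gene IDs matched the RefSeq table, with 0 names changed.

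Log2 of signal + 16 was fitted without further normalization in R 4.3.3 with limma 3.58.1 (lmFit, eBayes with trend), two-sided, after leaving out 64 control probe sets and the 40% with the lowest mean over all arrays (27023 left). The filter was kept where an array was left out. P-values were adjusted by Benjamini-Hochberg over all tested probe sets at 0.05. The fit was also run on simulated data. Their spread was taken without transgenic replicate 2, so that run does not cover a set with such an array. Each array is a different mouse, and handling differences add to the spread that the p-values rest on. Tables and figures used Python 3.11.15, pandas 2.3.3 and matplotlib 3.10.9.

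The members and gene lists were chosen with earlier results of these data known. Named genes are members called in either fit, those without overlap and with a log2 change of at least 1, the brightest, and a list of members by role; of that list Mmp15, Mmp25, Mmp28 and Adamts2 had no probe set under the rule. Up to 5 genes of each other list that were called on 6 arrays, and a few non-called ones chosen after their values were seen (Furin, Reck, Vcan, Sycp3, Syn1, Syn2, Syn3), are named. Alternatives were offsets of 1 and 64, no filter, a 60% filter, quantile normalization, median centring, array weights, eBayes in its robust form or with no trend, each array left out, a block on replicate number, and transgenic replicate 2 left out with quantile normalization. Blocks for the Pcx ratio class (under 10 or above) were added after seeing the data.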

Additional observations from a re-analysis of the deposited data

How the results depend on the processing

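Over the 6 fits with 1 array left out, the count of all called probe sets ran from 141 (without wild type replicate 2) to 3565 (without transgenic replicate 2), against 802 with all arrays. The members called lower ran from 1 to 10, against 5, and those called higher from 0 to 9, against 0. Array weights gave 3359 calls in all, 10 members lower and 7 higher. Quantile normalization gave 2 members higher, Mmp2 and Adam12, and moved the median change of all tested probe sets from −0.09 to 0.03. Leaving out transgenic replicate 2 gave 4973 calls, 12 members lower and 10 higher with quantile normalization, and 5937, 21 and 14 with the Pcx class as a block, an alternative chosen after seeing the data. With the replicate block the counts were 341, 3 and 0. The mice were litter-matched, but nothing ties the numbers to litters, so the pairing is by number only. Same-numbered arrays correlated in their deviations by −0.374, 0.0892 and −0.0507. Wild type replicate 3 and transgenic replicate 1, the pair with the low Pcx ratio, correlated by 0.449. Such values cannot show whether same-numbered mice were littermates, since differences between arrays enter them too. The Pcx class block on 6 arrays gave 4 members lower (Timp4 1423405_at, Adamts5 1456404_at, Mmp9 1448291_at and Timp3 1449334_at) and 0 higher. The other settings gave 4 or 5 lower and 0 higher.

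Of the called probe sets, Timp4 1423405_at kept its call in 19 of 19 alternatives, with log2 fold changes from −3.77 to −3.20. Timp4 1450974_at lost it in 8 and Adamts5 1450658_at in 8, Adamts5 1456404_at in 4 and Mmp9 1448291_at in 3 of 18, since the 60% filter left it untested, and none changed sign. With a single array left out the sign turned for 19 of the 68 tested member probe sets, 14 of them without transgenic replicate 2, and 0 of the 19 were called on 6 arrays. Of the 19 probe sets called in either fit, which were followed under every alternative, 3 changed sign. Over the fits with 1 array left out, Mmp19 1421977_at ran from −0.09 (without transgenic replicate 1) to 0.95, Adam12 1421171_at from −0.72 to 1.02 and Adam17 1421859_at from −1.52 to 0.70. Adam12 1421171_at became 0.12 with an offset of 64, 0.05 with quantile normalization, 0.04 with median centring, 1.03 with array weights, and 1.0 and 1.03 when leaving out transgenic replicate 2 was combined with quantile normalization and with the Pcx block. Adam17 1421859_at became 0.62 with array weights, and 0.68 and 0.72 with the same combinations. The cause was not tested. The number of arrays and signals near background limit the precision.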
